A study of Mus musculus with 21 samples.

Results

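Hypoxia was applied to B16-F10 cells in a flow-regulated incubator, in sets of arrays that the labels number experiment 1 and experiment 2. The 10 arrays labelled with these numbers were taken, of 21 arrays in the series. The hypoxia change of experiment 1 was then compared with that of experiment 2, gene by gene. B16-F10 is 1 mouse melanoma line, derived from C57BL/6J and obtained from ATCC. Each experiment held 2 control arrays of cells at 21% oxygen and 3 arrays of cells kept for 24 h at 1% oxygen, all in RPMI medium with 10% fetal serum. The labels give no time for the controls. They name the arrays biological replicates without stating that cultures were grown apart. P-values therefore reflect the scatter among these arrays, which may be technical. Nothing in the labels tells what differed between the experiments besides their number. The other 11 arrays were a sealed chamber set (2 controls, 3 hypoxia) and experiment 3 (2 controls, and 2 arrays at each of 2 cobalt chloride doses, 100 and 200 µM); they entered the estimate of the spread and not the comparison.

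Cells short of oxygen stabilise the HIF transcription factors, whose prolyl hydroxylases need oxygen to mark them for destruction. HIF binds a short hypoxia response element and raises genes for glucose uptake, glycolysis, glycogen storage, blood vessel growth, collagen hydroxylation and mitophagy. A longer shortage also lowers protein synthesis, ribosome production and DNA replication, in part through the kinase mTORC1 and the integrated stress response, which answer nutrients and growth factors as well as oxygen. Serum and cell density act on another set of genes, the immediate early genes and the targets of SRF, YAP and BMP signals.

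The genes on which the comparison turns are shown by their promoters, from RefSeq on GRCm38.p6. Bnip3 (chr7:138909507-138909756, minus strand), Ddit4 (chr10:59951771-59952020, minus strand), Txnip (chr3:96557707-96557956, plus strand) and Ccn1 (chr3:145649986-145650235, minus strand) changed by different amounts in the experiments. Ero1a (chr14:45318573-45318822, minus strand) and Pfkp (chr13:6648772-6649021, minus strand) rose by similar amounts and were called repeating, as defined below with a 1.5-fold margin, although for Pfkp that call was lost when any 1 of the 10 arrays was left out (adjusted p 0.0625 to 0.128). Each line gives the 250 bases before the gene's annotated start, 5′ to 3′ on the gene's strand. Capitals mark the hypoxia response element core, ACGTG or GCGTG on either strand, and in Ccn1 also CATTCC, the TEAD motif of YAP targets.
Bnip3: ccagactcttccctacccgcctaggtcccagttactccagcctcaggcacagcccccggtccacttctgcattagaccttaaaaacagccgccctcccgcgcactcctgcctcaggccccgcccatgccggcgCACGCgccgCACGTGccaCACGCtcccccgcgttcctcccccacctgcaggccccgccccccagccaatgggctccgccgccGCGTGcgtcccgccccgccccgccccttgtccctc
Ddit4: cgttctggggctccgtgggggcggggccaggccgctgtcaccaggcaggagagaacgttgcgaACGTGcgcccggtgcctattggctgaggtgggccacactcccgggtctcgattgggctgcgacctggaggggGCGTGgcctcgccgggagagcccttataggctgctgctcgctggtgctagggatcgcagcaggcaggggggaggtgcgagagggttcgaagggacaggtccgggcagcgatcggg
Txnip: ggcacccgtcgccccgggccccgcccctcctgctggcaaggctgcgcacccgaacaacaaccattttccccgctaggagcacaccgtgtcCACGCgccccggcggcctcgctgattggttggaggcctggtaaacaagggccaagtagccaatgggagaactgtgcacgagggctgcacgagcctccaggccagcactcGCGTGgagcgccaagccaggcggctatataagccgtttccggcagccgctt
Ccn1: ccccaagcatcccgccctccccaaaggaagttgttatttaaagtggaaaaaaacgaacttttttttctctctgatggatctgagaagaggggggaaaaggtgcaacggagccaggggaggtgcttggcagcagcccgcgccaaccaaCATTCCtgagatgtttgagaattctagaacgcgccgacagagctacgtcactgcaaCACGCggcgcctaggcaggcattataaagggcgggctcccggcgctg
Ero1a: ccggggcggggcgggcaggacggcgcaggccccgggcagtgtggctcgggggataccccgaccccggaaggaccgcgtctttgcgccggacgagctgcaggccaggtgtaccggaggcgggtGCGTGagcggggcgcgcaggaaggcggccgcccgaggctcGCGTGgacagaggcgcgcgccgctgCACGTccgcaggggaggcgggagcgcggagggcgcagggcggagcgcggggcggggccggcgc
Pfkp: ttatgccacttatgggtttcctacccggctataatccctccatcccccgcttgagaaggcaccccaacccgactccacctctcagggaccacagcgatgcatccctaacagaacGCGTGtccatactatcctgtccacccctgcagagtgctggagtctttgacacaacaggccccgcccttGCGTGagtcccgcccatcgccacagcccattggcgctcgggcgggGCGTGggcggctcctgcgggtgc
Both kinds of gene held the core: 5 matches in Bnip3, where the palindrome CACGTG counts on both strands, 2 in Ddit4, 2 in Txnip, 1 in Ccn1, 3 in Ero1a and 3 in Pfkp. Over a window of 300 bases that also took in the first 50 bases of the gene, the core was present in 6 of 8 promoters of genes with a higher change in experiment 1 (75.0%), 9 of 14 with a lower change there (64.3%), 140 of 190 repeating genes that rose (73.7%) and 186 of 270 repeating genes that fell (68.9%). Of all 6576 genes with a promoter among those searched, out of 8251 tested, 59.1% held it, so the core was common in every group of genes. CATTCC on either strand was found in 3 of the 8 promoters of genes with a higher change in experiment 1 (37.5%). It was in 1 of the 14 with a lower change (7.14%) and in 12.2% of all promoters. The CCAAT box, also on either strand, was in 1 of the 8 (12.5%), 9 of the 14 (64.3%) and 38.3% of all. The AP-1 motif TGANTCA was in 2 of the 8 (25.0%), 3 of the 14 (21.4%) and 6.14% of all. The E-box CACGTG was in 0 of the 8, 2 of the 14 (14.3%) and 9.95% of all. The CArG box of SRF was in 0 of the 8 and 0 of the 14, against 1.64% of all. These shares are descriptions of few promoters and were not tested.

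Most genes called in both experiments moved together. At an adjusted p under 0.05 (limma, Benjamini-Hochberg over 8251 genes), 18.3% of genes were called for hypoxia in experiment 1 (7.57% higher, 10.7% lower) and 15.3% in experiment 2 (7.55% higher, 7.79% lower). Called in the same direction in both were 833 genes (10.1%), of which 402 rose (4.87%) and 431 fell (5.22%). Another 673 were called in experiment 1 alone (8.16%) and 429 in experiment 2 alone (5.2%), of which 8 and 6 differed between the experiments by the test below. The risen genes made up 64.3% of those that rose in experiment 1 and 64.5% of those in experiment 2. The fallen genes made up 48.7% and 67.0%. Their median log2 changes were 0.722 and 0.728 for the risen genes in experiments 1 and 2, and -0.635 and -0.598 for the fallen ones. Neither experiment was the stronger one throughout: 196 of the risen genes changed more in experiment 1 and 206 more in experiment 2, and for the fallen genes the counts were 225 and 206. The counts per experiment rest on few controls: without either control of experiment 1, 933 or 884 genes were called there instead of 1510, and without control 1 of experiment 2, 723 instead of 1266. Genes called in both numbered 557 to 774 when each array was left out in turn, lowest without control 1 of experiment 2.

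A change was called repeating where it was called in both experiments in 1 direction and an equivalence test held the difference between them within 1.5-fold (adjusted p under 0.05). This held for 545 genes, 6.61% of all genes tested, of which 228 rose (2.76%) and 317 fell (3.84%), and for 65.4% of the 833 genes called in both. The share depended on the size of the change. Among 178 genes whose mean log2 change was under 0.5 in size, 177 were repeating (99.4%), where genes with a change of 1 direction in both have little room to differ by the margin. It was 62.9% for changes of 0.5 to 1, 34.5% for 1 to 2 and 27.6% for the 29 genes at 2 or more, of which 8 were repeating and 3 differed. The median distance between the experiments was 0.08 in the group of smallest changes and 0.35 in the group of largest. Larger changes were thus held within the margin less often. The count was 226 to 472 with 1 array left out, at 226 and 240 without control 1 or 2 of experiment 1, and at 235 and 249 without control 1 or 2 of experiment 2. With a narrower margin, 5/4-fold, 0 genes passed (85 at an unadjusted p under 0.05, against 593 at 1.5-fold).

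**Figure D1:**
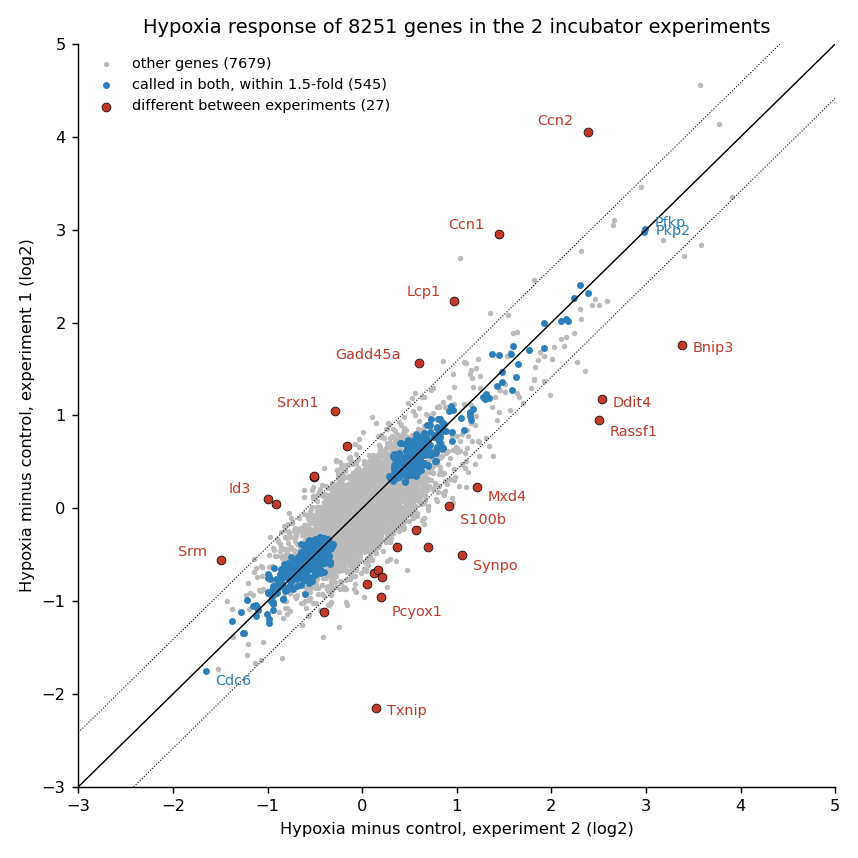
Log2 change in hypoxia of 8251 genes, experiment 1 on the vertical axis against experiment 2 on the horizontal axis, with dotted lines at a 1.5-fold distance; blue points are the 545 repeating genes and red points the 27 that differed. Blue points lie along the diagonal, with mean changes from -1.70 for Cdc6 to 2.99 for Pkp2. Some larger rises, such as that of Lgals3 (4.56 and 3.57), were not repeating. Red points lie outside the dotted lines on both sides, with Ccn2 and Ccn1 above and Bnip3, Ddit4 and Txnip below.

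Among the repeating responses were enzymes of glucose use and HIF's own regulators. Pkp2, a desmosomal plaque protein, had the highest mean change. Its log2 level was 5.56 and 5.69 in the controls of experiment 1 and 8.56, 8.63 and 8.68 in hypoxia, and 5.52 and 5.23, then 8.40, 8.42 and 8.27, in experiment 2. The log2 change was 3.00 and 2.98, an 8.01-fold and a 7.92-fold rise, with a difference of 0.02 ± 0.18 (SE) and a 95% interval of -0.36 to 0.39. Both conditions lay slightly higher in experiment 1, and all hypoxia arrays lay far above all controls. The probe set used for Pkp2 matches a sequence family. Another set gave 2.64 and 2.57, and yet another gave 0.50 and 0.02, so the sets do not give 1 size for this gene.

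Pfkp, the platelet form of phosphofructokinase, read 5.71 and 5.99 in the controls and 8.62, 9.14 and 8.72 in the hypoxia arrays of experiment 1. Experiment 2 gave 6.25 and 6.12, then 9.13, 9.26 and 9.11. The controls lay higher in experiment 2, the hypoxia arrays overlapped, and the change was 2.97 and 2.98. The equivalence call of Pfkp did not hold without any one of the 10 arrays (adjusted p 0.0625 to 0.128, limma). Gys1, muscle glycogen synthase, stood at 8.52 and 8.70 and then 10.81, 10.84 and 11.12 in experiment 1, and at 8.49 and 8.07 and then 10.77, 10.64 and 10.58 in experiment 2. Its change was 2.31 and 2.39. Pgm1, Ugp2 and Pgk1 in the same metabolism were repeating as well, with 1.66 and 1.57, 1.41 and 1.62, and 0.80 and 0.57.

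Egln1 (PHD2), the main hydroxylase that marks HIF for destruction and is itself raised by HIF, stood at 8.05 and 7.82 in the controls and 9.97, 10.02 and 9.93 in hypoxia in experiment 1. Experiment 2 gave 8.01 and 7.87, then 10.12, 10.05 and 10.09. The controls overlapped, the hypoxia arrays lay slightly higher in experiment 2, and the changes were 2.04 and 2.15. Ero1a, the oxidase of disulfide formation in the endoplasmic reticulum whose promoter is shown above, went from 9.74 and 9.61 to 11.68, 11.76 and 11.65, and in experiment 2 from 9.42 and 9.36 to 11.52, 11.64 and 11.56. That was a 4.06-fold and a 4.53-fold rise. Its levels were slightly higher in experiment 1 in both conditions. Mxi1, a MAX partner that opposes MYC, repeated at 2.02 and 2.10, and the collagen hydroxylases P4ha1 and P4ha2 at 1.2 and 1.27, and 1.75 and 1.59. Sap30, a subunit of a histone deacetylase complex, repeated at 2.41 and 2.30, and the stress genes Ier3 and Plk2 at 2.26 and 2.24, and 2.00 and 1.92. Tor1aip2, a nuclear envelope gene, rose by 1.73 and 1.93. Other probe sets of Pfkp (2.35 and 2.37), Ero1a (1.91 and 2.16) and P4ha2 (1.35 and 1.41) also changed by similar amounts in the experiments.

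Anxa2, a membrane-binding annexin, kept its equivalence call when any single array was left out, with adjusted p at most 0.0409 (limma). It stood at 9.61 and 9.61 in the controls of experiment 1 and at 11.25, 11.40 and 11.29 in hypoxia. Levels in experiment 2 were 9.71 and 9.79, then 11.46, 11.54 and 11.56. Experiment 2 was slightly higher in every group, and the change was 1.70 and 1.77. Of the 20 repeating genes with the highest or lowest mean changes, the call of the other 19 was lost without at least 1 array, and that of Pfkp and Ier3 without any one of the 10. Other repeating genes given as examples were not checked in this way.

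Among the repeating falls were genes of DNA replication. Cdc6, which loads the replicative helicase, stood at 7.65 and 7.31 and then at 5.81, 5.92 and 5.44 in experiment 1. Experiment 2 gave 7.75 and 7.83 and then 6.11, 6.08 and 6.23. The hypoxia arrays of experiment 1 were all lower than those of experiment 2, as were its controls, and the fall was 1.75 and 1.65 (changes of -1.75 and -1.65). Fen1, the flap nuclease of Okazaki fragment processing, went from 6.48 and 6.51 to 5.26, 5.40 and 4.81, and from 6.66 and 6.92 to 5.51, 5.66 and 5.46. Its changes were -1.34 and -1.25. Elovl6 (fatty acid elongation), Rbm38 (an RNA-binding p53 target), Bop1 (ribosome assembly) and Xpot (tRNA export) repeated with changes of -1.34 and -1.26, -1.22 and -1.38, -1.12 and -1.28, and -1.16 and -1.12. Other probe sets of Elovl6 (-0.61 and -0.62), Bop1 (-0.03 and -0.08) and Xpot (-0.17 and -0.58) gave smaller changes. Sppl2b, an intramembrane protease, and Tmem50b completed the named falls, with changes of -1.23 and -0.98, and -0.99 and -1.22. Another Tmem50b set gave 0.02 and -0.17.

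**Figure D2:**
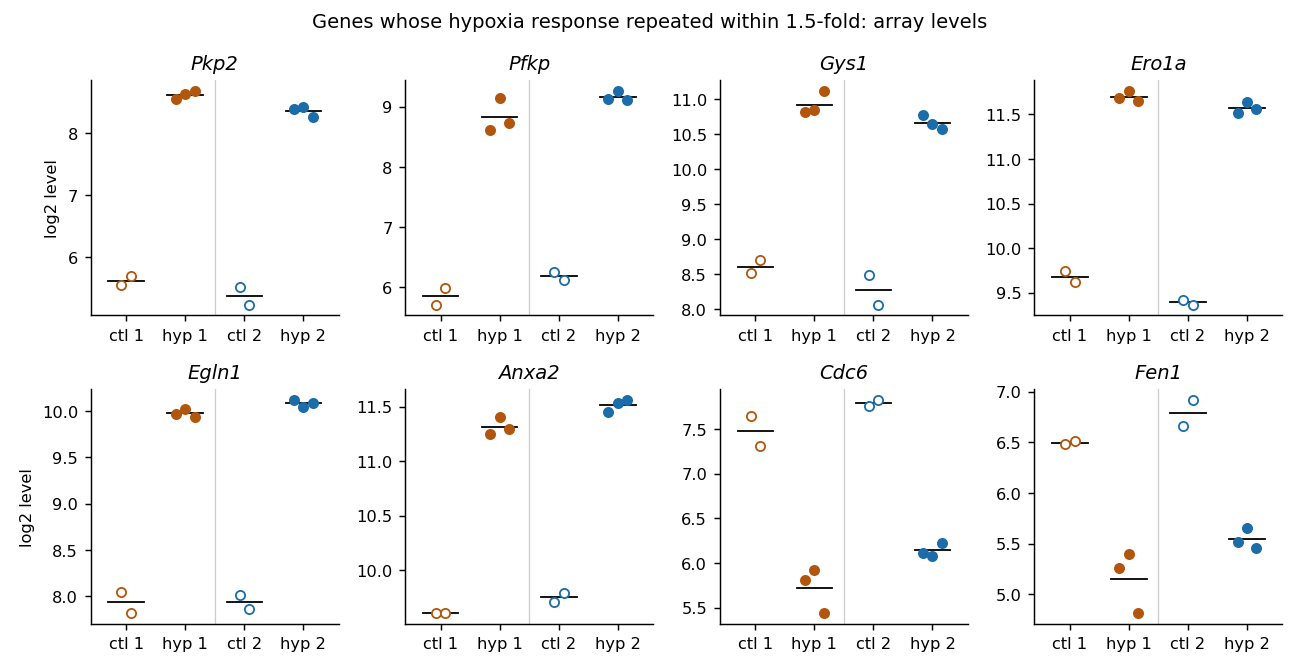
Log2 levels on each of the 10 arrays for 8 repeating genes, with open points for controls, filled points for hypoxia, orange for experiment 1, blue for experiment 2, and bars at group means. In each panel hypoxia and control arrays are apart by about the same distance in both experiments, as for Egln1 (2.04 and 2.15) and Anxa2 (1.70 and 1.77).

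Several of the best known hypoxia genes could be called neither repeating nor different. Vegfa, the angiogenic growth factor, rose by 3.11 and 2.66, with a difference of 0.45 and a 95% interval of -0.03 to 0.92 (adjusted p = 0.62, limma). Slc2a1, the glucose transporter GLUT1, rose by 2.77 and 2.31 and its difference of 0.47 did not pass (adjusted p = 0.37, limma). Hk2 rose by 2.15 and 2.30, Adm by 2.89 and 3.18, Nppb by 4.14 and 3.77, Selenbp1 by 3.35 and 3.91 and Ccng2 by 2.83 and 3.58; another Hk2 probe set gave 0.03 and 0.05. In all, 279 genes called in both experiments (3.38% of genes tested) were undecided in this way. For these neither the test of a difference nor the equivalence test passed. The HIF subunits themselves were not called in either experiment: Hif1a changed by 0.20 and 0.10, Epas1 by -0.27 and -0.01. Ldha was not called in either experiment as well, at 0.39 and 0.34.

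The size of the hypoxia change differed between the experiments for 27 genes, 0.327% of those tested: 11 had the higher change in experiment 1 (0.133%) and 16 the lower (0.194%). In all 27, the changes of the 3 hypoxia arrays of one experiment, each taken against the mean of its controls, lay apart from those of the other, which follows in large part from how the 27 were chosen and held for 33.2% of all genes. Of the 27, 9 were called in both experiments in the same direction and differed in size, 4 were called in opposite directions (0.0485% of genes tested), and the others were called in 1 experiment. The count was sensitive to the arrays used. It ran from 8 to 29 with 1 array left out, at 8 without control 2 of experiment 1, 14 without its control 1, 15 without hypoxia array 2 of experiment 2 and 17 without control 1 of experiment 2. Only Txnip, Ccn2, Lcp1, Bnip3 and Synpo of the 27 kept an adjusted p under 0.05 without any single one of the 10 arrays.

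Txnip, which binds thioredoxin and restrains glucose uptake, differed most. It read 7.77 and 7.96 in the controls of experiment 1 and 5.70, 5.74 and 5.71 in its hypoxia arrays. In experiment 2 it read 6.83 and 6.40 in controls and 6.96, 6.34 and 6.98 in hypoxia. Controls of experiment 1 were thus the highest of the 10 arrays and its hypoxia arrays the lowest, with all arrays of experiment 2 between them. Txnip fell by 2.15 in experiment 1 and changed by 0.15 in experiment 2, a difference of -2.30 ± 0.22 (SE; 95% interval -2.75 to -1.84; adjusted p = 7.1e-06, limma). The highest adjusted p with any array left out was 0.000307. Another Txnip probe set differed by 0.09, and the mean of both sets by -1.10. In the sealed chamber Txnip fell by 1.46. Mxd4, a MAX partner of the same network as the factors that control Txnip, stood at 6.95 and 7.06 and then 7.34, 7.19 and 7.17 in experiment 1. It stood at 6.61 and 6.52 and then 7.78, 7.76 and 7.78 in experiment 2. It rose in experiment 2 (1.21) and was not called in experiment 1 (0.23), a difference of -0.98 ± 0.17, whose adjusted p was 0.1 and 0.0607 without control 2 of experiment 1 or of experiment 2.

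Bnip3 and Ddit4, both HIF targets, rose more in experiment 2, as did Rassf1. Bnip3, a mitophagy receptor, stood at 6.21 and 6.07 and then 8.07, 7.90 and 7.74 in experiment 1. In experiment 2 it stood at 5.17 and 5.42 and then 8.52, 8.73 and 8.77. Controls were lower and hypoxia arrays higher in experiment 2, with no overlap in either condition. The rise was 3.39-fold in experiment 1 and 10.4-fold in experiment 2, a log2 difference of -1.62 ± 0.23 (95% interval -2.09 to -1.14; adjusted p = 0.0016, limma). Ddit4 (REDD1), an inhibitor of mTORC1, went from 8.51 and 8.86 to 9.90, 9.92 and 9.75 in experiment 1, and from 7.32 and 7.27 to 9.89, 9.73 and 9.86 in experiment 2. Its hypoxia arrays overlapped between the experiments (difference 0.03), and its controls did not (difference 1.39, adjusted p = 9.2e-05, limma). The rise of Ddit4 was 2.25-fold and 5.78-fold, a log2 difference of -1.36 ± 0.22 (adjusted p = 0.0043, and 0.0749 without control 2 of experiment 1). Rassf1, a scaffold of the Hippo pathway, read 6.09 and 6.86 and then 7.45, 7.42 and 7.41 in experiment 1, and 5.64 and 5.64 and then 8.12, 8.30 and 7.99 in experiment 2. It rose 1.93-fold and 5.66-fold. One of its controls in experiment 1 lay well above the other, and without that array, control 2, the difference of -1.55 became -1.17 (adjusted p = 0.0976).

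The secreted matricellular factors Ccn1 and Ccn2, which serum and the YAP and SRF factors raise, rose more in experiment 1. Ccn2 stood at 4.62 and 4.77 and then 8.38, 9.13 and 8.73 in experiment 1. It stood at 5.11 and 5.08 and then 7.50, 7.64 and 7.29 in experiment 2. The hypoxia arrays of experiment 1 were the highest. The rise of Ccn2 was 16.6-fold and 5.22-fold, a 3.18-fold difference (log2 1.67 ± 0.24; adjusted p = 0.0016, limma). Ccn1 read 5.98 and 5.91 and then 8.82, 9.15 and 8.72 in experiment 1, and 7.84 and 7.74 and then 9.38, 9.29 and 9.02 in experiment 2. Its hypoxia arrays overlapped, and its controls were 1.84 lower in experiment 1 (log2 difference -1.84, adjusted p = 5.2e-05, limma). Ccn1 rose by 2.95 and 1.44, a difference of 1.51 ± 0.28 (adjusted p = 0.012), which had an adjusted p of 0.0596, 0.1 and 0.0831 without control 1 or 2 of experiment 1 or control 1 of experiment 2. Lcp1 (L-plastin), which bundles actin, went from 6.52 and 6.36 to 8.48, 8.89 and 8.64, and from 6.24 and 6.33 to 7.35, 7.17 and 7.23. It rose 4.69-fold and 1.95-fold, and its hypoxia arrays were higher in experiment 1 by 1.42. Another Lcp1 probe set rose by 0.88 and 0.23. Synpo (synaptopodin), another actin-binding protein, did the reverse: 4.68 and 4.62 and then 4.23, 4.38 and 3.81 in experiment 1, 4.49 and 4.80 and then 5.95, 5.70 and 5.44 in experiment 2. With overlapping controls it fell by 0.51 in experiment 1 and rose by 1.05 in experiment 2, a difference of -1.56 ± 0.22 (adjusted p = 0.0016, limma).

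Id3 and Nr4a1 were also among the 27, each the only member called for the difference in its list. Of 17 TGF-beta and BMP targets 1 was called, with 10 differences positive and 7 negative. Of 26 immediate early genes 1 was called, with 12 positive and 14 negative. Of all genes 0.327% were called. Id3, a BMP target that blocks helix-loop-helix factors, stood at 5.22 and 5.40 and then 5.51, 5.31 and 5.41 in experiment 1. In experiment 2 it stood at 6.78 and 6.74 and then 6.04, 5.75 and 5.5. It was low on all 5 arrays of experiment 1, and in experiment 2 it fell by 1.0 from higher controls towards that level. The difference was 1.10 ± 0.18 (adjusted p = 0.0055, limma; 0.0596 without control 1 of experiment 1). Nr4a1, an immediate early nuclear receptor, read 6.65 and 6.68 and then 7.02, 7.09 and 6.93, against 7.84 and 8.06 and then 7.70, 7.38 and 7.24. All its arrays of experiment 1 were lower than all those of experiment 2. Nr4a1 rose by 0.35 in experiment 1 and fell by 0.51 in experiment 2, and the difference of 0.86 had an adjusted p of 0.025 (limma) that was at or above 0.05 without any one of 6 arrays (0.0642 to 0.143). Gadd45a, a stress and DNA damage gene, rose more in experiment 1 (1.57 and 0.60), with a difference of 0.97 ± 0.21 (adjusted p = 0.041, limma). That call was lost without any one of 9 arrays (0.0529 to 0.256) and kept without control 2 of experiment 1.

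Antioxidant, transport and biosynthetic genes made up another group. Srxn1 (sulfiredoxin), an NRF2 target that restores peroxiredoxins, stood at 5.58 and 5.81 and then 6.69, 6.92 and 6.64 in experiment 1, and at 6.78 and 6.49 and then 6.41, 6.24 and 6.38 in experiment 2. It rose by 1.05 in experiment 1 and was not called in experiment 2 (-0.29). Controls of experiment 1 were the lowest of its 10 arrays. Its difference of 1.34 ± 0.24 (adjusted p = 0.01, limma) had an adjusted p of 0.0817 and 0.0933 without control 1 of experiment 1 or of experiment 2. Another Srxn1 probe set differed by 0.07, and the mean of both sets by 0.71. Srm, spermidine synthase, fell by 0.55 and by 1.49, and the gap junction gene Gja1 (connexin 43) changed by 0.05 and fell by 0.91 in experiment 2. Both calls ended without 1 of the controls: Srm had an adjusted p of 0.127 without control 2 of experiment 1 and 0.108 without control 1 of experiment 2, and Gja1 one of 0.0817, 0.0587 and 0.0784 without control 1 or 2 of experiment 1 or control 2 of experiment 2. The amino acid transporter Slc6a15 rose in experiment 1 (0.67) and was not called in experiment 2 (-0.16). Maoa, monoamine oxidase A, fell in experiment 2 (change -0.51; 0.34 in experiment 1, not called). Adssl1, of AMP synthesis, fell by 0.42 and rose by 0.69, with a difference of -1.11 ± 0.20 (adjusted p = 0.01, limma; 0.1 without control 2 of experiment 1). The calls of Slc6a15 and Maoa ended without any one of 5 and 8 arrays (adjusted p 0.0539 to 0.133 and 0.0727 to 0.341).

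Mc1r and Sox10, of the melanocyte lineage, fell in experiment 1 and were not called in experiment 2. Mc1r, the melanocortin receptor, stood at 8.39 and 8.35 and then 7.66, 7.62 and 7.38 in experiment 1. In experiment 2 it stood at 8.54 and 8.27 and then 8.33, 8.62 and 8.43. The hypoxia arrays of experiment 1 were below the other 7 arrays, whose ranges overlapped. Mc1r fell by 0.82 and changed by 0.05, a difference of -0.87 ± 0.17 (adjusted p = 0.02, limma). Sox10, the neural crest factor that drives the lineage, read 10.01 and 10.00 and then 9.38, 9.14 and 9.49, against 9.98 and 9.70 and then 10.22, 9.94 and 9.84. It fell by 0.67 in experiment 1 and changed by 0.17 in experiment 2, a difference of -0.83 ± 0.18 (adjusted p = 0.039, limma). S100b, a calcium-binding protein of the lineage, stood at 6.41 and 6.52 and then 6.44, 6.53 and 6.48, against 6.39 and 6.39 and then 7.29, 7.34 and 7.29. S100b lay between 6.39 and 6.53 on 7 arrays and was higher on the 3 hypoxia arrays of experiment 2, with a difference of -0.89 ± 0.14 (adjusted p = 0.0043, limma; 0.0559 without control 2 of experiment 1). The calls of Mc1r and Sox10 ended without any one of 5 and 7 arrays (adjusted p 0.0615 to 0.134 and 0.0538 to 0.18). That of Sox10 also ended under other processing, as with median-centred arrays or the mean of probe sets (adjusted p 0.0588 and 0.117, limma). Of 17 measured melanocyte and pigment genes, 2 were called for the difference, both lower, against 0.327% of all genes called and 0.194% called lower. Of the 17 differences 8 were positive. Mlph and Gpr143, of melanosome transport and formation, were repeating falls (changes -1.14 and -1.0, and -0.89 and -0.94). Mitf rose in both (0.89 and 1.19), and Tyr was not called in either (-0.01 and -0.10).

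The remaining 6 of the 27 fell in experiment 1 or rose in experiment 2 with differences between -0.71 and -1.16. Pcyox1, which degrades prenylated cysteines, fell by 0.96 and changed by 0.20. The chromatin reader Zmynd8 fell by 0.74 and changed by 0.21. Mmp14, a membrane-bound matrix metalloproteinase, fell by 0.70 and changed by 0.12, while Reck, an inhibitor of such proteases, rose by 0.57 in experiment 2 and changed by -0.23 in experiment 1. Ikbkg, the regulatory subunit of the IKK complex, fell by 0.42 and rose by 0.37. Nfix, a nuclear factor, fell in both, by 1.12 and 0.40. All 6 lost the call without several single arrays: adjusted p was 0.0535 to 0.133 without any one of 5 arrays for Pcyox1, 0.0536 to 0.196 without 5 for Ikbkg, 0.0666 to 0.255 without 8 for Zmynd8, and 0.0722 to 0.215, 0.0702 to 0.341 and 0.0722 to 0.23 without 9 for Mmp14, Reck and Nfix. Other probe sets differed by -0.33 for Ikbkg, -0.08 for Nfix and -0.50 for Sox10, with the sign of the set used here. For Maoa they differed by -0.16 and 0.58, and for Gja1 by 0.59.

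**Figure D3:**
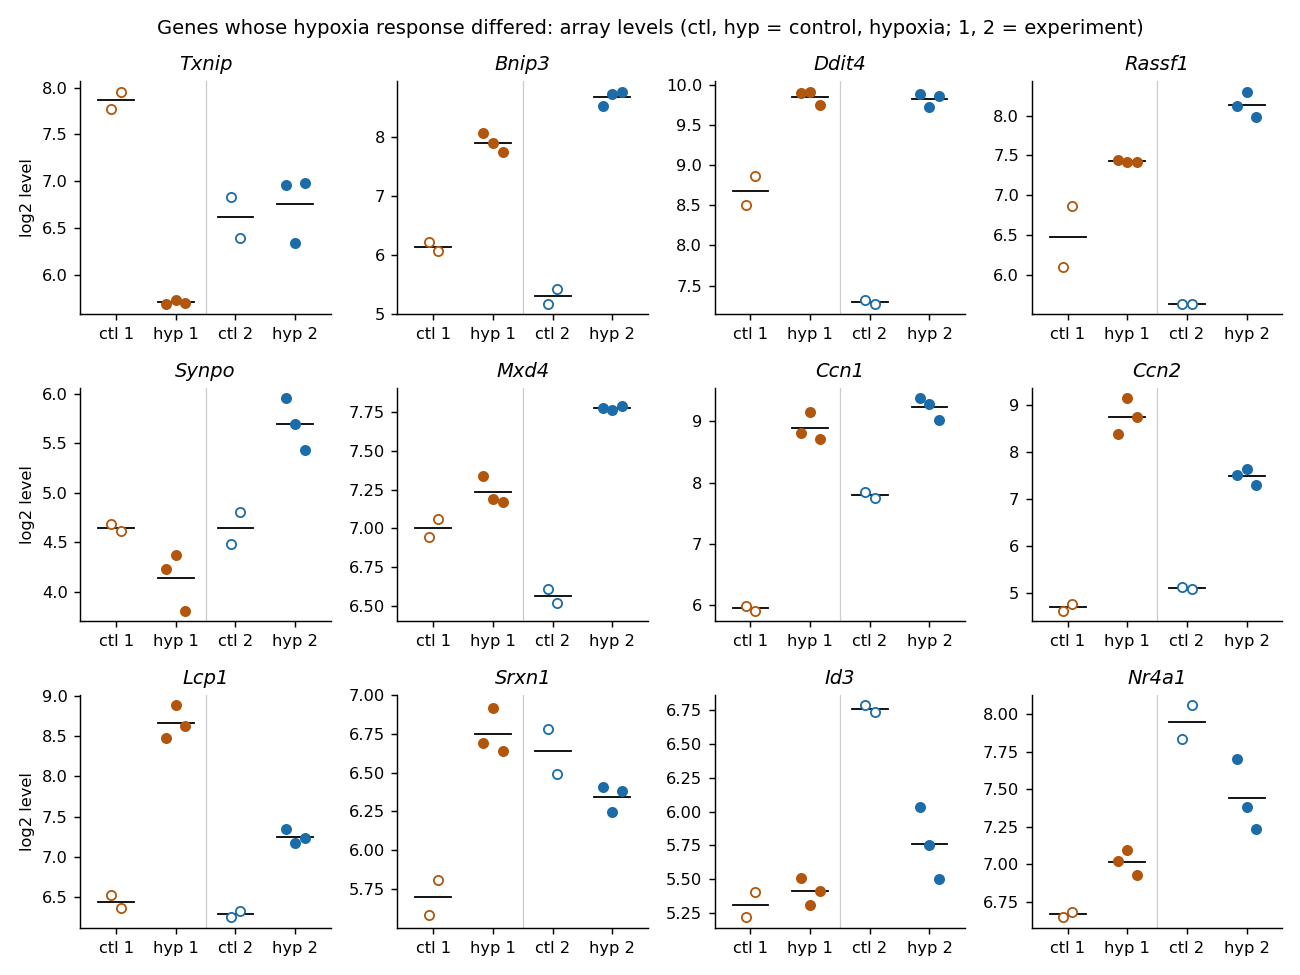
Log2 levels on each of the 10 arrays for 12 of the 27 genes that differed, with open points for controls, filled points for hypoxia, orange for experiment 1, blue for experiment 2, and bars at group means. Ddit4 and Ccn1 meet in hypoxia and are apart in controls (1.39 and -1.84), Ccn2, Lcp1 and Synpo are apart in hypoxia (1.27, 1.42 and -1.56), and Txnip and Bnip3 are apart in both conditions in opposite directions.

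The difference in response is the difference between the hypoxia arrays minus that between the controls, so each of the 27 genes can be placed by where the experiments were apart. For 19 genes the hypoxia arrays were called and the controls not, for 4 the controls and not the hypoxia arrays (Ccn1, Ddit4, Id3 and Srxn1), for 3 both (Bnip3, Nr4a1 and Txnip) and for Nfix neither. Of all genes, 6.28% were called between the hypoxia arrays and 0.291% between the controls. These comparisons have 3 and 2 arrays a side and unlike power, so the split by calls depends on that as well. By size, the larger part lay between the controls for 9 genes, among them Rassf1, whose controls were not called, and between the hypoxia arrays for 18. In 20 of the 27 the distances had opposite signs in the conditions, which adds to the difference by its construction. The sealed chamber, another set with its own controls, lay nearer to experiment 1 for 5 genes (Ccn1, Id3, Nr4a1, Rassf1 and Txnip). It lay nearer to experiment 2 for 22, where over all genes it lay nearer to experiment 2 for 55.6%. It lay between both for 16. No share over all genes was taken for this count, and genes chosen as far apart leave more room between. For Bnip3, Ddit4 and Ccn2 the chamber changes were 3.13, 2.33 and 2.50, for S100b 1.10 and for Mc1r 0.03.

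**Figure D4:**
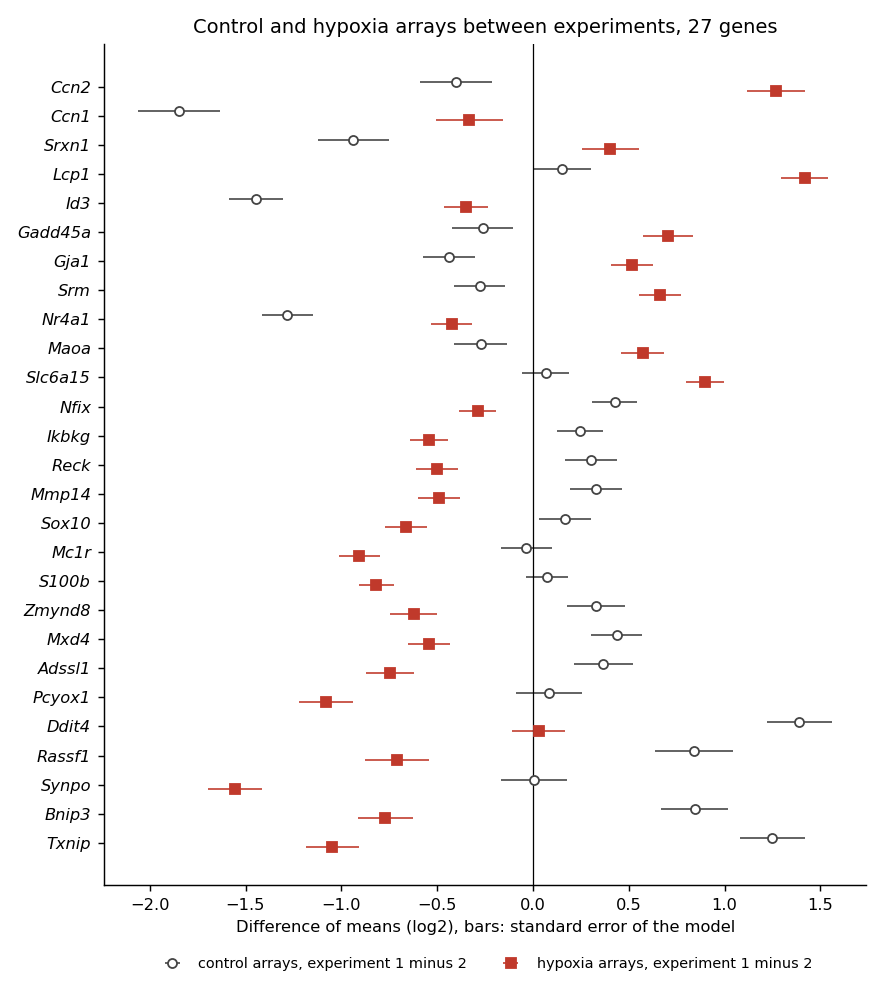
Log2 difference, experiment 1 minus experiment 2, between the controls (open circles) and between the hypoxia arrays (red squares) of the 27 genes, with bars of 1 SE. Circles far from 0 mark genes whose controls were apart, such as Ccn1 (-1.84), Id3 (-1.45) and Ddit4 (1.39), and squares far from 0 with circles near it mark Synpo (-1.56) and Pcyox1 (-1.08).

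Across all genes, more were called between the hypoxia arrays of the experiments than between their controls. Between the controls 24 genes were called (0.291%), 11 higher in experiment 1 (0.133%) and 13 lower (0.158%). Between the hypoxia arrays 518 were called (6.28%), 167 higher in experiment 1 (2.02%) and 351 lower (4.25%). The control comparison has 2 arrays a side and the hypoxia comparison 3, with median standard errors of 0.14 and 0.114, so the counts do not measure the same power. Leaving out 1 array gave 10 to 26 calls between the controls, with 14 and 10 without control 1 or 2 of experiment 1 and 11 without either control of experiment 2. It gave 233 to 492 between the hypoxia arrays, with 282 without hypoxia array 3 of experiment 1, and 233 and 324 without hypoxia array 2 or 3 of experiment 2. Of the 24, 11 were called with the same sign between the hypoxia arrays as well, so these genes were apart at both oxygen levels, and 7 were among the 27.

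Among the 24 genes apart between controls were immediate early, BMP and stress genes. Fos, a subunit of AP-1, was lowest in the controls of experiment 1 (5.66 and 5.56) and read 8.19 and 8.03 in those of experiment 2, a difference of -2.50 (adjusted p = 0.00013, limma). In hypoxia it read 8.26, 8.65 and 8.01 in experiment 1 and 9.31, 9.29 and 8.82 in experiment 2. Fos rose by 2.70 and 1.03, and the difference in response, 1.67 ± 0.41, did not pass the test (adjusted p = 0.099). Another Fos probe set changed by 0.06 and 0.03. Egr1, a zinc finger factor of the same early wave, stood at 6.33 and 5.97 in the controls of experiment 1 and at 7.73 and 7.82 in those of experiment 2, and was lower in experiment 1 in hypoxia too (-1.02, adjusted p = 0.0014, limma). Id1 stood at 4.20 and 4.55 in the controls and 4.55, 4.37 and 4.78 in hypoxia in experiment 1. In experiment 2 it stood at 5.88 and 5.87, then 5.33, 5.42 and 5.04. All 5 arrays of experiment 1 were lower. In the other direction, Cp (ceruloplasmin, a copper ferroxidase) stood at 5.92 and 6.20 against 4.70 and 4.88, and Ddit3 (CHOP), a factor of the stress response, at 9.00 and 9.37 against 8.01 and 7.89. Lgals3 (galectin-3), one of the most raised genes, had controls 1.10 lower in experiment 1 (log2 difference -1.10, adjusted p = 0.033, limma). It rose by 4.56 and 3.57, and the difference of 0.99 did not pass (adjusted p = 0.19).

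Between the hypoxia arrays the genes highest in experiment 1 were Lcp1, Ccn2, Myh9 (non-muscle myosin, 1.11), Snhg1 (a small nucleolar RNA host, 0.90), Slc6a15 (0.90) and Lpp (a focal adhesion protein, 0.87). Those lowest there were Synpo, Pqlc3 (-1.44), Pcyox1, Txnip, the vesicle protein Vamp5 (-1.03) and the immediate early gene Ier2 (-1.02). Of the 518 genes, 22 were among the 27 and 116 were called for hypoxia in both experiments in the same direction, so genes called in both could still end at different levels. Slc2a1 was one of them (0.57 higher in experiment 1 in hypoxia), as was Mlph (-0.93).

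The lists of genes by pathway are described here by counts and medians, and no list was tested. Over all genes the difference was positive for 3995 and negative for 4256, and the median change was -0.03 in each experiment. Of 28 measured HIF targets outside glycolysis, 21 rose in each experiment, the same 21, against 7.57% and 7.55% of all genes. The medians over the list were 1.60 and 1.89. Of these 21, 6 were repeating (28.6%): Ero1a, Egln1, Mxi1, P4ha1, P4ha2 and the histone demethylase Kdm3a (1.55 and 1.64). That share was lower than the 65.4% of all genes called in both. Among all genes called in both, it was 34.5% at mean changes of 1 to 2 and 27.6% at 2 or more. The difference was negative for 20 of the 28, but called for Bnip3 and Ddit4 alone. Ndrg1 rose by 1.37 and 1.92 and Pdk1, the kinase that closes pyruvate dehydrogenase, by 1.24 and 1.64. With 1 array left out, 8 to 13 of the 28 differences were positive. Of 18 glycolysis and glucose uptake genes, 10 rose in experiment 1 and 12 in experiment 2, against 7.57% and 7.55% of all genes, with medians of 0.51 and 0.50. Pfkp, Pgk1, Pgam1 (0.62 and 0.71), Tpi1 (0.67 and 0.69) and Pkm (0.40 and 0.40), 5 of the 10 called in both, were repeating. Aldoc, a brain-type aldolase, rose by 1.22 and 1.98.

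Of 23 genes of the integrated stress response and amino acid supply, 22 had a positive difference and 0 were called for it by limma. At an unadjusted p under 0.05, 9 were higher and 1 lower in experiment 1, or 43.5% against 8.73% of all genes. In experiment 1, 5 rose and 7 fell (median 0.11), and in experiment 2, 1 rose and 11 fell (median -0.37). Of all genes 7.57% rose and 10.7% fell in experiment 1, and 7.55% and 7.79% in experiment 2. Asns (asparagine synthetase, -0.56), Mthfd2 (mitochondrial folate enzyme, -0.53) and the pseudokinase Trib3 (-0.37) fell in experiment 2 and were not called in experiment 1 (-0.12, 0.02 and 0.11). Slc7a11, the cystine transporter, and Cebpg rose in experiment 1 (0.74 and 0.92) and were not called in experiment 2 (-0.03 and 0.27). Ddit3 was the 1 gene with a negative difference. Between the hypoxia arrays 12 of the 23 were higher in experiment 1 and 0 lower, against 2.02% and 4.25% of all genes. That count was 11 with median-centred arrays, 16 with quantile-normalised arrays and 7 without hypoxia array 2 of experiment 1. Of 19 unfolded protein response genes 15 had a positive difference. Herpud1, which helps degrade misfolded proteins, came nearest to a call, at 0.23 and -0.52 (difference 0.75, adjusted p = 0.083, limma).

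More genes of ribosome biogenesis fell in experiment 2 than in experiment 1. Of 47 measured genes, 11 fell and 3 rose in experiment 1 (median -0.16) and 23 fell and 0 rose in experiment 2 (median -0.41), and 44 differences were positive. Of all genes 10.7% fell in experiment 1 and 7.79% in experiment 2. With 1 array left out, 5 to 11 of the 47 fell in experiment 1, at 5 without its control 2, and 18 to 23 in experiment 2. By limma 0 were called for the difference, and 10 passed an unadjusted p of 0.05, all positive (21.3%). The helicase Ddx21 (-0.83) and the methyltransferase fibrillarin (Fbl, -0.82) fell in experiment 2 and were not called in experiment 1 (-0.19 and -0.24). Nop56, of the same snoRNP as Fbl, fell in both (changes -0.74 and -1.11). Of the 10 called in both, 7 were repeating (70.0%), against 65.4% of all genes called in both. Between the hypoxia arrays 6 were higher in experiment 1, against 2.02% of all genes, and 2 to 5 with 1 array left out. Of 31 cytosolic ribosomal protein genes 28 were held within 1.5-fold (90.3%, against 68.6% of all genes).

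Many DNA replication genes fell in both experiments. Of all genes 10.7% fell in experiment 1, 7.79% in experiment 2 and 5.22% in both. Of 42 DNA replication genes 24 fell in experiment 1 (median -0.50) and 32 in experiment 2 (median -0.68), 23 of them in both. Of these 23, 15 were repeating (65.2%), a share near the 65.4% of all genes called in both. The helicase subunits Mcm2 (-0.69 and -1.14) and Mcm3 (-0.62 and -1.07) fell in both, and Mcm4 (-0.42 and -0.95) and Mcm5 (-0.31 and -0.97) fell in experiment 2 and were not called in experiment 1. The difference was positive for 31 of 42 and called for 0 (limma; 8 at an unadjusted p under 0.05, all positive). Of 36 mitosis genes, 12 fell and 2 rose in experiment 1 (median -0.19), where 10.7% of all genes fell and 7.57% rose. In experiment 2, 5 fell and 2 rose (median -0.09), against 7.79% and 7.55% of all genes. For 11 of the 36 the difference was positive. With 1 array left out, 5 to 14 fell in experiment 1 and 0 to 5 in experiment 2. Mki67, the proliferation marker, was not called in either (-0.26 and 0.11).

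Of 27 CCN factors and SRF or YAP targets, 9 rose in experiment 1 and 7 in experiment 2, against 7.57% and 7.55% of all genes. Only Ccn1 and Ccn2 of this list were called for the difference, against 0.327% of all genes. Over the list 19 differences were positive and 8 negative. The focal adhesion protein vinculin (Vcl, 3.46 and 2.94) and the calponin Cnn2 (3.05 and 2.65) rose in both, and both were higher in experiment 1 in hypoxia. F3 (tissue factor) rose by 2.18 and 2.43. Of 26 immediate early genes, 12 rose and 2 fell in experiment 1, and 10 rose and 2 fell in experiment 2, where 7.57% and 7.55% of all genes rose. With 1 array left out, 7 to 12 rose in experiment 1, at 7 without its control 1, and 7 to 14 in experiment 2. Between the controls 3 were called, all lower in experiment 1, against 0.158% of all genes. Between the hypoxia arrays 7 were called, all lower in experiment 1, against 4.25% of all genes. Without hypoxia array 2 of experiment 2 the last count was 3.

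**Figure D5:**
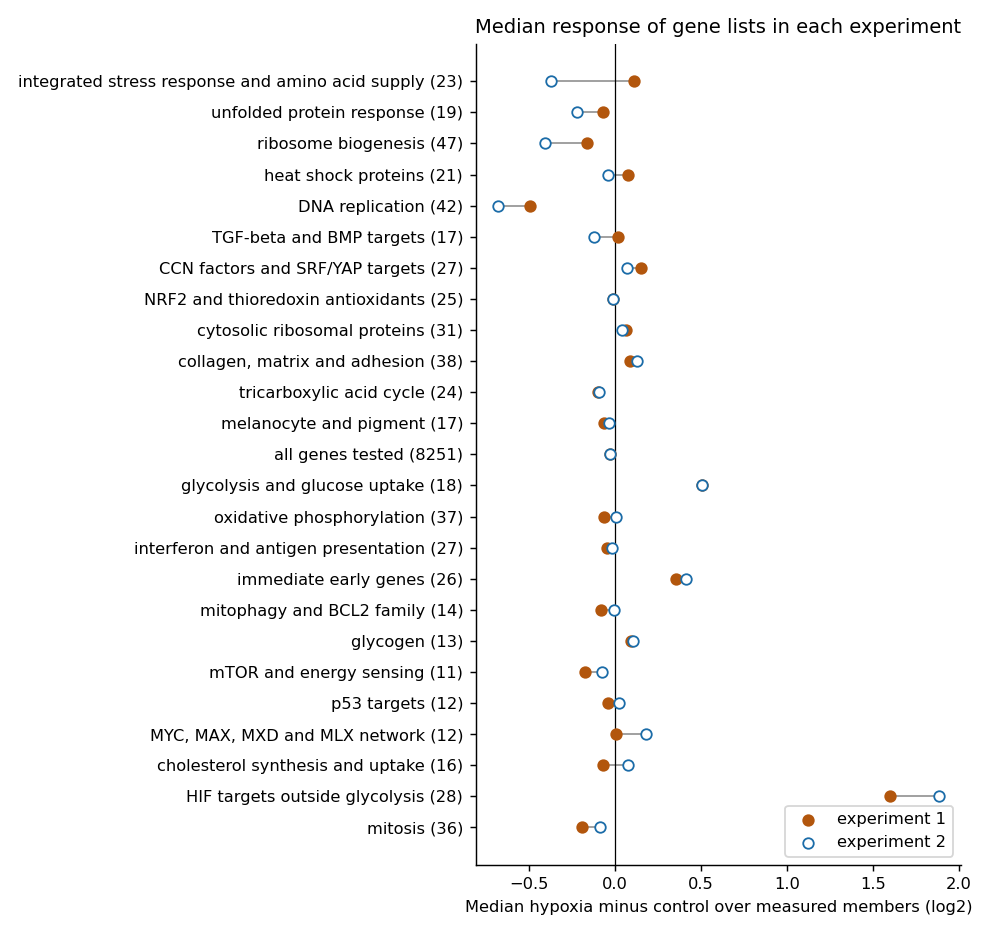
Median log2 change in hypoxia over the measured members of 24 gene lists and over all genes, filled points for experiment 1 and open points for experiment 2. HIF targets lie highest in both (1.60 and 1.89), and the points are farthest apart for the integrated stress response (0.11 and -0.37), the HIF targets and ribosome biogenesis (-0.16 and -0.41).

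Arrays of a group correlated between 0.9925 and 0.9972 over all genes, lowest within the hypoxia arrays of experiment 1, and array medians lay between 5.44 and 5.52. The 3′ minus 5′ difference of the control probe sets, a measure of RNA quality, was 0.0712 to 0.524 for Gapdh over the 10 arrays. For 3 other control genes it set the controls of experiment 1 apart from their own hypoxia arrays: Actb at 0.333 to 0.352 against 0.147 to 0.250, Pcx at 0.432 to 0.463 against 0.749 to 0.859, and Tfrc at 1.56 to 1.68 against 2.22 to 2.43. In experiment 2 the controls and hypoxia arrays gave 0.217 to 0.223 and 0.24 to 0.425 for Actb, 0.458 to 0.748 and 0.61 to 0.825 for Pcx, and 2.19 to 2.60 and 2.05 to 2.10 for Tfrc. They were thus apart there too for Actb and Tfrc, in the direction opposite to experiment 1, and overlapped for Pcx. The controls of experiment 1 enter its hypoxia change, the difference between the experiments and the comparison of the controls. They do not enter the comparison of the hypoxia arrays. The part of these 3′ minus 5′ differences in the results was not tested. Melanocyte markers matched the line, with mean levels of 9.64 to 9.97 over 6 of 7 markers, Pmel at 12.3 to 12.6, Dct at 11.5 to 11.7 and Tyr at 6.94 to 8.14. Summary levels of 13 fibroblast markers (5.04 to 5.19), 10 endothelial (4.82 to 5.07), 12 leukocyte (4.54 to 4.84) and 12 epithelial markers (4.39 to 4.50) are given for each list alone, and by limma 0 of these genes were called for the difference, between the controls or between the hypoxia arrays. At an unadjusted p under 0.05, 1 of the 47 passed for the difference. No detection call was used, so whether a level lay above background was not tested, which bears most on Synpo, Adssl1 and the control arrays for Ccn2 and Id1.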

How the data were processed

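RNA from B16-F10 cells was measured on 21 Affymetrix arrays in 9 groups, of which the 10 arrays of experiments 1 and 2 were compared here. The authors deposited log2 values for each probe set, made with GCOS 1.2 and RMA per the submitters' processing notes. Which RMA version and probe definition they used, and if in 1 run for all arrays, is not given in the sources used here. Values ran from 1.37 to 13.3 and were used without further scaling; the precision is limited by 2 or 3 arrays a group.

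Of 12488 probe sets, 66 were controls, 396 named several genes, 1193 were unnamed here and 10833 had 1 gene symbol, of which 10817 were updated by Entrez identifier and 16 kept an old symbol. The set with the highest mean represented each of 8251 genes, 2073 of which had several sets. Family-matching sets (suffix _f_at) represent Gja1, Srm, Ikbkg, Pkp2 and Hif1a among the genes described.

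With limma 3.58.1 (R 4.3.3), each of the 9 groups was given its own mean in a single linear model over the 21 arrays (12 residual degrees of freedom, 20.9 after moderation). Contrasts were hypoxia minus control in each experiment, experiment 1 minus experiment 2 for that change, for the controls and for the hypoxia arrays, and the chamber's own change. Tests were two-sided, with Benjamini-Hochberg adjustment across the 8251 genes and calls at an adjusted p under 0.05. Repeating genes were called by paired one-sided tests of the difference against a 1.5-fold margin with the moderated standard error, adjusted the same way. Errors are standard errors of the model. The fit and the equivalence test were tested on simulated data.

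Named genes were all those called for the difference, the 12 highest and 8 lowest mean changes among repeating genes, genes called in opposite directions, up to 6 each way between controls and between hypoxia arrays, up to 4 members of a list by size of the difference, and a fixed set of hypoxia and lineage genes. Other list members given as examples were chosen after their values were seen. The members, the lists and these rules were chosen with earlier results of these data known. Chamber controls were assigned to their set because their titles carry no experiment number.

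Alternatives were median centring, quantile normalisation, a filter that drops genes below percentile 40 by mean level, the mean of probe sets or all sets, array weights, robust moderation with a variance trend, only the 10 or 15 arrays of the hypoxia sets, replicate number as a block, a narrower margin and one of 2-fold, and leaving out each array in turn. Leaving out arrays for the list counts was added after seeing the data. Promoters came from RefSeq on GRCm38.p6 by gene symbol. Promoters on chr18 were left out. Ccn2, Srm, Slc6a15, Synpo, Sox10, Pkp2 and Bop1 had no match among the rest.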

Additional observations from a re-analysis of the deposited data

Results flagged for a closer look

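All 27 genes called for the difference between the experiments are given here because their hypoxia changes differed by a test of the difference itself (limma, adjusted p under 0.05). The log2 difference, experiment 1 minus experiment 2, was 1.67 for Ccn2, 1.51 for Ccn1, 1.34 for Srxn1, 1.26 for Lcp1, 1.10 for Id3, 0.97 for Gadd45a, 0.96 for Gja1, 0.94 for Srm, 0.86 for Nr4a1, 0.84 for Maoa and 0.83 for Slc6a15. It was -2.30 for Txnip, -1.62 for Bnip3, -1.56 for Synpo, -1.55 for Rassf1, -1.36 for Ddit4, -1.16 for Pcyox1, -1.11 for Adssl1, -0.98 for Mxd4, -0.95 for Zmynd8, -0.89 for S100b, -0.87 for Mc1r, -0.83 for Sox10, -0.82 for Mmp14, -0.80 for Reck, -0.79 for Ikbkg and -0.71 for Nfix. Adjusted p-values ran from 7.1e-06 for Txnip to 0.046 for Reck.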

How the results depend on the processing

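None of the 27 differences or of the 20 repeating genes with the highest or lowest mean changes turned direction under the alternatives run; other genes were not followed through them. The 27 differences numbered 123 with array weights, 57 with only the 10 arrays of experiments 1 and 2 (26 of the 27 kept) and 138 with the 15 arrays of the hypoxia sets (27 kept). In the same order the calls between controls numbered 52, 39 and 57 instead of 24, and those between hypoxia arrays 1545, 836 and 1132 instead of 518. Repeating genes numbered 897 with array weights and 983 with the 15 arrays instead of 545, and 0 with a narrower margin of 5/4-fold. The cause was not tested. With 1 array left out, differences numbered 8 to 29, calls 884 to 1490 in experiment 1 and 723 to 1270 in experiment 2, 10 to 26 between controls, 233 to 492 between hypoxia arrays, 226 to 472 repeating genes and 557 to 774 called in both.

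Control and hypoxia arrays with the same replicate number had correlations of deviations of -0.0101 and 0.0144 in experiment 1 and 0.235 and 0.0273 in experiment 2. With different numbers they ran from -0.0241 to 0.0241 and from -0.243 to 0.243. The deviations of 2 controls mirror each other, so these values cannot tell whether the numbers pair arrays. With the number as a replicate block, 3 differences were called (Ccn2, Txnip and Synpo), 827 and 813 changes in experiments 1 and 2, 482 in both and 0 repeating genes. A block could not be fitted between controls or between hypoxia arrays, since each experiment has its own numbers. Differences were no longer called with median-centred arrays for Gadd45a, Sox10, Mmp14, Reck and Nfix (adjusted p 0.0588 to 0.0949, limma), with the mean of probe sets for Maoa, Sox10 and Nfix (0.343, 0.117 and 0.396), with all probe sets for 6 genes (0.0567 to 0.0662), with quantile normalisation for Nfix (0.056) and with only the 10 arrays for Sox10 (0.0516). Of the 20 repeating genes, the call was lost with median-centred arrays for Pfkp, Ier3, Plk2, Bop1 and Tmem50b (0.0501 to 0.0585), with quantile normalisation for Tmem50b (0.0622), with all probe sets for Sppl2b and Tmem50b (0.0508 and 0.0533) and with array weights for Sppl2b (0.0673). Under the filter on low means, Id3, Synpo, Adssl1 and Zmynd8 have no value. Detection calls were not used, so how far dim signal limits these calls was not tested.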

Other observations

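Several sterol genes were lower in the hypoxia arrays of experiment 1 than in those of experiment 2. Of 16 measured genes of cholesterol synthesis and uptake, 5 were called lower in the hypoxia arrays of experiment 1 and 0 higher: Dhcr7 (-0.94), Hmgcs1 (-0.89), Msmo1 (-0.80), Idi1 (-0.71) and Lss (-0.44), all enzymes of the sterol pathway. Of all genes, 4.25% were called lower and 2.02% higher in this comparison. The list median was -0.26 between the controls, where 0 were called by limma (5 at an unadjusted p under 0.05), and -0.38 between the hypoxia arrays, against 0.00 for all genes. Without hypoxia array 3 of experiment 1 the count was 3. For hypoxia itself, 1 of the 16 rose and 1 fell in experiment 1 and 2 rose in experiment 2, where 18.3% and 15.3% of all genes were called.

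Genes of mitochondrial energy metabolism and of the antioxidant response were also measured. Of 37 genes of oxidative phosphorylation, 1 rose and 3 fell in experiment 1 and 1 rose in experiment 2, against 18.3% and 15.3% of all genes called in either direction, and by limma 0 were called for the difference (1 at an unadjusted p under 0.05). Between the hypoxia arrays 5 of the 37 were lower in experiment 1, against 4.25% of all genes, and 0 to 2 with any 1 array left out. Of 25 NRF2 and thioredoxin genes, 7 rose and 1 fell in experiment 1 and 4 rose and 4 fell in experiment 2, and Srxn1 was called for the difference. Gclc, of glutathione synthesis, rose in experiment 1 (0.66) and was not called in experiment 2 (-0.03), and its difference of 0.69 did not pass (adjusted p = 0.22, limma).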
